A study of Mus musculus with 6 samples.

Results

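The 10 genes described here encode the MHC class II molecules of the mouse and the machinery that loads them with peptide: H2-Aa, H2-Ab1, H2-Eb1, Cd74, H2-DMa, H2-DMb1, H2-DMb2, H2-Oa, H2-Ob and Ciita. Every probe annotated with one of these symbols was taken, which gave 14 probes (4 for H2-Ab1, 2 for Cd74 and 1 for each other gene) of 25697 in the table of signals. They stand for 10 of 7989 named genes. Gene symbols were at hand only for probes of the authors' log2 table, whose 11220 probes are those detected on at least 3 of the 6 arrays. A class II probe outside that table would carry no name here, and so the members are detected probes by construction. Gene expression was measured on Illumina mouse bead arrays in dendritic cells grown for 6 days with GM-CSF and IL-4 (1.5 ng/ml each). The marrow came from Rag2-deficient mice (C57BL/10NAGCSnAi-(KO) Rag2) aged 6 weeks, in a number the labels do not state. The first group had intracellular reactive oxygen species (ROS) made by light: hematoporphyrin, a photosensitising porphyrin, at 1 µg/ml for 1 h, a wash, 3 min of LED illumination at 3.1 mW/cm2 (wavelengths of 450 to 600 nm with the maximum at 515 nm), and 18 h of culture. The second received lipopolysaccharide (LPS, a bacterial cell wall component) at 1 µg/ml for 18 h, and the third was left unstimulated. Each group has 2 arrays. All 3 groups share the Rag2 deletion, so mature B and T cells, which need Rag2 to rearrange their receptors, are absent from the donor animals. The labels say neither whether unstimulated cells saw hematoporphyrin, light or a further 18 h of culture, nor whether replicates came from separate cultures or animals. The p-values therefore measure only the spread between these arrays, which may be technical.

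An MHC class II molecule is a pair of an alpha and a beta chain that carries peptides from ingested proteins to the cell surface for CD4 T cells to read. H2-Aa and H2-Ab1 encode the chains of I-A. H2-Eb1 encodes the beta chain of I-E, whose alpha chain is not made in mice of the b haplotype, to which C57BL/10 belongs. Cd74, the invariant chain, escorts new molecules to endosomes and blocks their groove. H2-M (H2-DMa with H2-DMb1 or H2-DMb2) exchanges the last piece of Cd74 for antigenic peptide, and H2-O (H2-Oa with H2-Ob) restrains H2-M. Ciita is the transactivator that switches on this whole set of genes. It does not bind DNA itself but docks on factors that occupy the X and Y boxes of class II promoters. In dendritic cells maturation is known to shut off Ciita transcription, while class II protein already made is moved to the surface and kept there.

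Of these genes 7 had 1 or more promoter windows in RefSeq (assembly GRCm38.p6), and these were searched because the genes share a transactivator and moved together. A window runs from 250 bases before to 50 bases after a transcript start, and H2-DMa has 2. The letters sought on both strands were CTGATTGG and its core ATTGG for the Y box, and ACNGATG for the X box core. The long Y box letters stood in 3 of 8 class II windows and in 4.1% of all 32851 windows. Its core, contained in the longer run, stood in 7 of 8 and in 37.4% of all windows. The X box letters stood in 5 of 8 and in 9.85% of all windows. Capitals below mark these matches. The chain genes H2-Aa and H2-Eb1 are shown with the H2-M genes H2-DMb1 and H2-DMb2 and the H2-O genes H2-Oa and H2-Ob, so that the spacing of the matches can be compared. The windows lie at chr17:34287774-34288073 (minus strand), chr17:34305617-34305916 (plus strand), chr17:34152941-34153240 (plus strand), chr17:34144999-34145298 (plus strand), chr17:34092129-34092428 (plus strand) and chr17:34238655-34238954 (plus strand), and are given 5′ to 3′ on the strand of the gene.
H2-Aa: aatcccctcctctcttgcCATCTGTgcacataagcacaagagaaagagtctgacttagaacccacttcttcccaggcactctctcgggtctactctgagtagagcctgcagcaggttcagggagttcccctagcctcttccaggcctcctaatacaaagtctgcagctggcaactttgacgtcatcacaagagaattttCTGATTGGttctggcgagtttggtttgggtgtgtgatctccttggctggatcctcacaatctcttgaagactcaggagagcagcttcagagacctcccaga
H2-Eb1: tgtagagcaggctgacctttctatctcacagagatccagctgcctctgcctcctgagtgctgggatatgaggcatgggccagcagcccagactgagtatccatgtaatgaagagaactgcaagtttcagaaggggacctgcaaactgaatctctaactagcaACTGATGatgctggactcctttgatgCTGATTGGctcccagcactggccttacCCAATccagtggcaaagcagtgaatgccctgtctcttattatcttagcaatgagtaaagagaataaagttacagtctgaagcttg
H2-DMb1: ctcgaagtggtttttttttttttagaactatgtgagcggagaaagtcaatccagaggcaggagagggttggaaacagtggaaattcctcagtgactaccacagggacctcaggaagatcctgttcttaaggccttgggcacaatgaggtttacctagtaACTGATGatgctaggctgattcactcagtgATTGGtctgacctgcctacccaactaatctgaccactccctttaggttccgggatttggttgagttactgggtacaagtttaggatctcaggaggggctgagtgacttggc
H2-DMb2: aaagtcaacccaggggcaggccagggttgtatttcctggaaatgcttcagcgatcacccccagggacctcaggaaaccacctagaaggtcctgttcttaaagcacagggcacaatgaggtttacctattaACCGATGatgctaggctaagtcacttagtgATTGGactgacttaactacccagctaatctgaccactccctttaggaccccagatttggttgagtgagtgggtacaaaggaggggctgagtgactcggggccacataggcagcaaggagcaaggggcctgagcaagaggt
H2-Oa: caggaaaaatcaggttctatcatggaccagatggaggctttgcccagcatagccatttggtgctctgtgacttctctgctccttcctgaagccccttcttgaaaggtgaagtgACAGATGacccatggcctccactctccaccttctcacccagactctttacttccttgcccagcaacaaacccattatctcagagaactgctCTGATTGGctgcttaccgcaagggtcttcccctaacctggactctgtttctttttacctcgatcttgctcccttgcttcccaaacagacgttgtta
H2-Ob: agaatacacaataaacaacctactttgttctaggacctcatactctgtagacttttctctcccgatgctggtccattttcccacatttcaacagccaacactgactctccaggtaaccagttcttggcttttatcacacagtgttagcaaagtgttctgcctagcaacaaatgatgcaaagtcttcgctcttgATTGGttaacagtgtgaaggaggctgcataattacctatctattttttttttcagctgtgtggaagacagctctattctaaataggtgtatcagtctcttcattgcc
In H2-Eb1, H2-DMb1 and H2-DMb2 the X letters preceded the Y core on the gene's strand, with 29, 30 and 30 bases from start to start. That spacing of 29 to 30 bases, chosen after these windows were seen, occurred in 11 of the 32851 windows (0.0335%), 3 of them those of the class II genes just named. In H2-Oa the X letters began 137 bases and the long Y letters 46 bases before the start. In H2-Aa the long Y letters began 51 bases before the start, and the X letters were on the opposite strand. Of the letters sought, H2-Ob held the Y core alone, 57 bases before its start. Its window also holds acaaatg upstream of that core, which differs from the X letters and was not counted. Stretches that differ from the letters sought were not counted in any window. These are matches of letters and not measured binding. Whether the X letters found in H2-Oa and H2-Aa belong to an X box was not tested.

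**Figure D1:**
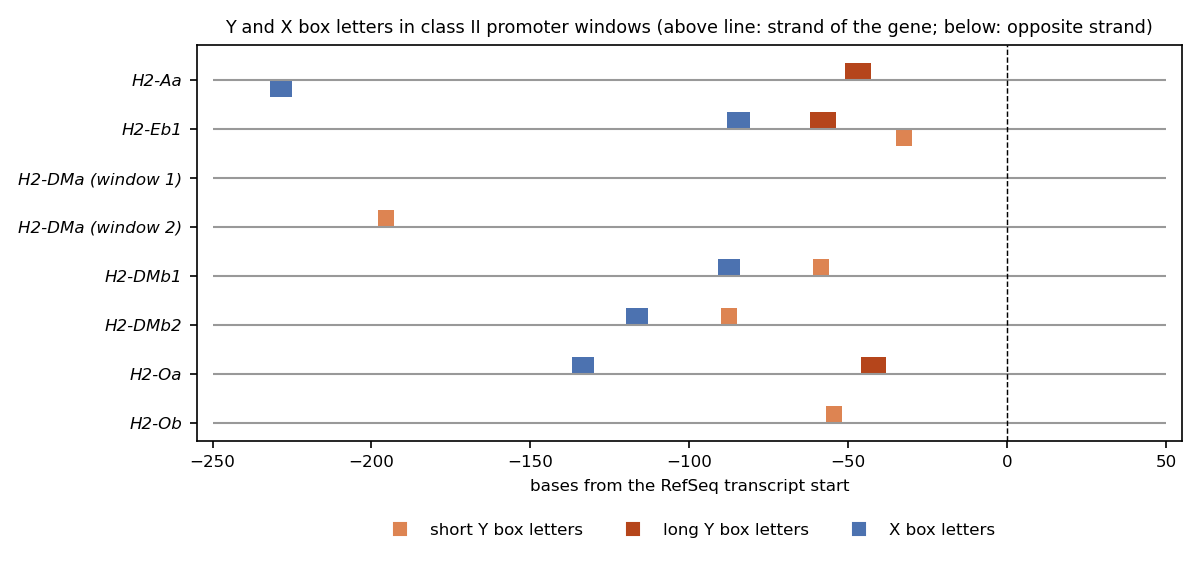
Positions of the Y and X box letters in the 8 RefSeq promoter windows of 7 class II genes, in bases from the transcript start (dashed line), with matches on the gene's strand above each line and on the opposite strand below it. H2-Eb1, H2-DMb1 and H2-DMb2 share an X match that lies 29 or 30 bases upstream of a Y match.

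Mean raw signals were 626 and 643 after ROS, 529 and 545 after LPS, and 704 and 765 in unstimulated cells. Probes above background numbered 11251 and 11438 on ROS, 10428 and 10485 on LPS, and 11267 and 11356 on unstimulated arrays. Values below are log2 intensities after background correction and quantile normalisation, unless called raw signals. Fold changes come from a limma fit over 11622 probes, p-values are Benjamini-Hochberg adjusted over those probes, and a gene was called at an adjusted p under 0.05. Levels are compared for 1 probe across groups and not between probes, save in the difference of the I-A chains and the sums of markers. Of 12 dendritic cell markers 8 had a named probe. Since a named probe was detected on at least 3 arrays, this count is no check of the cell type. Itgax, the CD11c gene, had raw signals of 184 and 172 on ROS, 158 and 166 on LPS, and 227 and 212 on unstimulated arrays, and the first LPS signal was not above background. No probe was named for Flt3, Cd209a, Clec9a or Xcr1.

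The question of the first comparison was what light-generated ROS changed 18 h later. All class II genes were lower on both ROS arrays than on both unstimulated arrays, and 9 of 10 fell past the threshold, among 18.0% of all 7897 genes called lower. None was called higher, as 21.8% of all genes were. Groups that did not overlap in that direction were found for 33.4% of all genes. The median log2 change of the 10 genes was -1.63, against 0.05 over all genes, and the range was -3.12 to -0.33. Median scaling, run in place of quantile normalisation, set the arrays to a common median over all 25697 probes. Since 10428 to 11438 probes were above background on an array, that median lay among probes not above background. Median scaling turned the genes called higher and lower to 1358 and 1737, and no scaling turned them to 1016 and 2088, against 1723 and 1423. All 10 class II genes were called lower under both. In RNA from a culture, fewer cells that express a gene and less RNA per cell cannot be told apart.

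H2-Aa had log2 intensities of 8.59 and 8.75 on ROS arrays, 9.38 and 9.39 on LPS arrays, and 11.20 and 11.21 on unstimulated arrays. The 3 groups did not overlap, and ROS was lowest. Its log2 change with ROS was -2.54 ± 0.11 (SE, n = 2 per group; limma adjusted p = 9.87e-05), a 5.8-fold fall. The partner chain H2-Ab1 had 13.78 and 13.73 on ROS, 14.87 and 14.93 on LPS, and 15.64 and 15.44 on unstimulated arrays with its brightest probe. It also stood lowest after ROS, at -1.79 ± 0.12 against unstimulated cells (limma adjusted p = 0.000262). All 4 H2-Ab1 probes fell, by -1.97 to -1.79. H2-Eb1 had 12.56 and 12.65 on ROS, 12.56 and 12.53 on LPS, and 14.34 and 14.28 on unstimulated arrays. Both treated groups lay below the unstimulated arrays and overlapped each other. With ROS it changed by -1.71 ± 0.11 (limma adjusted p = 0.000224).

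Cd74 showed the smallest fall among the genes called after ROS. It had 14.25 and 14.34 on ROS, 13.76 and 14.11 on LPS, and 15.10 and 14.91 on unstimulated arrays, a log2 change with ROS of -0.71 ± 0.16 (limma adjusted p = 0.016). The second Cd74 probe gave -0.50 ± 0.11 (limma adjusted p = 0.0133). Leaving out either unstimulated or either ROS array ended the call of Cd74 (limma adjusted p = 0.0502 to 0.094), with log2 changes of -0.80 to -0.61.

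The peptide exchange genes fell together with ROS, though H2-DMb1 and H2-DMb2 are close paralogues and whether each probe tells them apart was not tested. H2-DMa had 11.91 and 12.01 on ROS, 10.95 and 10.95 on LPS, and 13.17 and 13.21 on unstimulated arrays. It changed by -1.23 ± 0.11 with ROS (limma adjusted p = 0.000603) and stood between the other groups. H2-DMb1 had 10.80 and 10.83 on ROS, 10.58 and 10.48 on LPS, and 12.28 and 12.33 on unstimulated arrays, a change of -1.50 ± 0.11 (limma adjusted p = 0.000318). For H2-DMb2 the values were 7.71 and 7.69 on ROS, 5.51 and 4.91 on LPS, and 9.45 and 9.73 on unstimulated arrays, a change of -1.89 ± 0.21 (limma adjusted p = 0.00149).

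Of the H2-O genes, 1 passed the test with ROS. H2-Ob, the beta chain, had raw signals of 149 and 161 on ROS arrays, 165 and 163 on LPS arrays, and 506 and 428 on unstimulated arrays. It was not above background on either ROS array (the deposited detection values are 0.411 and 0.15, where under 0.05 counts as above) and was at least 6.66-fold lower there than in unstimulated cells (limma adjusted p = 9.79e-05). A bound of this kind sets the dim arrays at the lowest signal detected on them and holds for background-corrected values alone. The log2 change was -1.25 with no background correction and -1.35 on the authors' values. H2-Oa, the alpha chain, had log2 intensities of 8.06 and 8.26 on ROS, 7.85 and 7.96 on LPS, and 8.45 and 8.52 on unstimulated arrays. Its change of -0.33 ± 0.12 with ROS did not pass (limma adjusted p = 0.0846, 95% interval -0.63 to -0.02). It passed when arrays were scaled to a common median, not scaled at all or not background-corrected (limma adjusted p = 0.0438, 0.0223 and 0.0487), and over all alternatives the adjusted p ran from 0.0223 to 0.28.

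Ciita, the transactivator, had 8.65 and 8.35 on ROS, 6.03 and 6.90 on LPS, and 9.93 and 10.19 on unstimulated arrays. The 3 groups did not overlap, and the LPS arrays were lowest and farthest apart. It changed by -1.56 ± 0.30 with ROS (limma adjusted p = 0.00899). That call ended without the second unstimulated or the second ROS array (limma adjusted p = 0.0628 and 0.0599), where the log2 changes were -1.43 and -1.41.

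**Figure D2:**
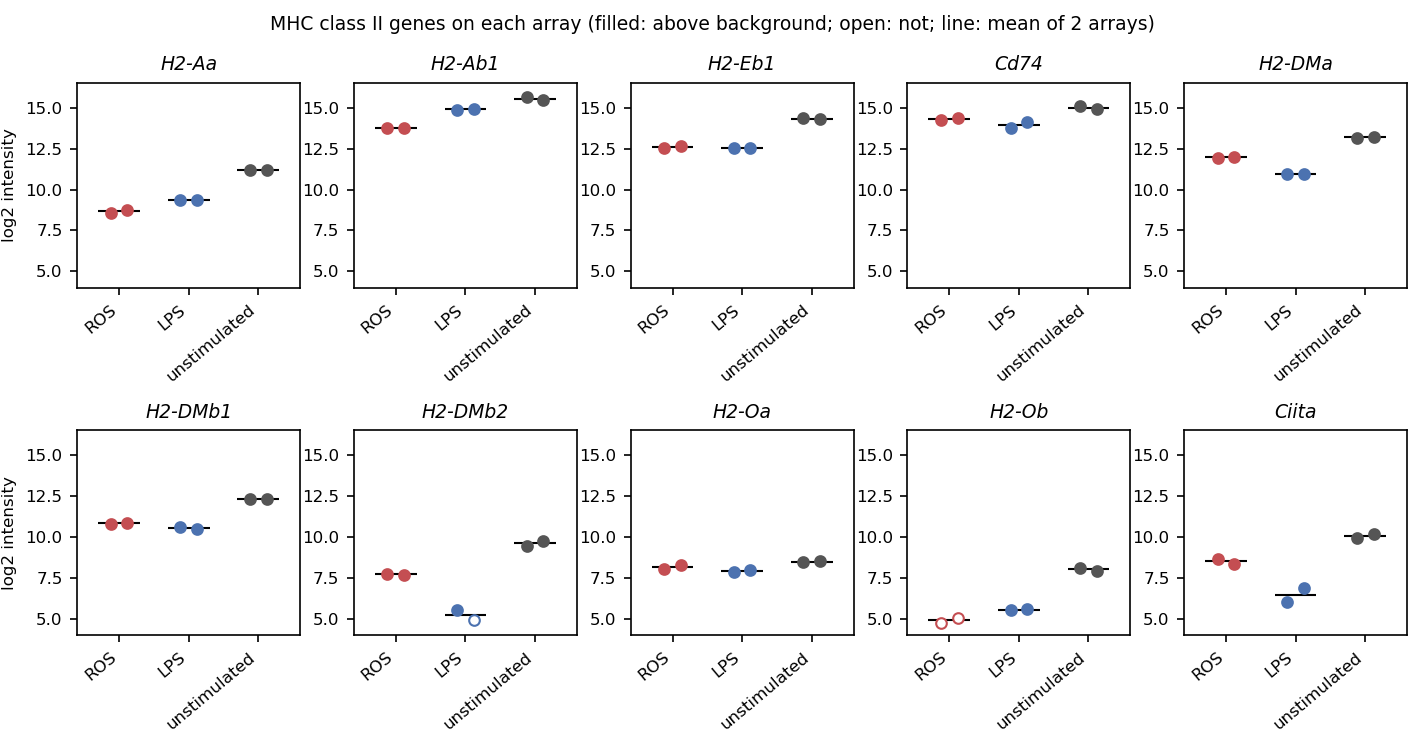
Normalised log2 intensity of the 10 class II genes on each of 6 arrays (1 probe per gene, vertical axis in log2 units), by group, with a line at the mean of 2 arrays, filled points above background and open points not. The unstimulated arrays are highest for every gene, and open points are seen for H2-Ob on both ROS arrays and for H2-DMb2 on 1 LPS array.

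How 18 h of LPS differed from no stimulus was the next question. All 10 class II genes fell, among 29.0% of all genes called lower, 0 were higher, among 24.7%, and for each gene both LPS arrays lay below both unstimulated arrays (41.7% of all genes). The median log2 change was -1.80, against -0.05 over all genes, with a range of -4.38 to -0.58. Between them, 9 genes fell with both stimuli, while 9.42% of all genes did. The 2 comparisons share their unstimulated arrays.

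H2-DMb2 and Ciita fell with LPS to signals near background. H2-DMb2 changed by -4.38 ± 0.21 (limma adjusted p = 3.3e-05) and was above background on 1 of 2 LPS arrays. Ciita changed by -3.60 ± 0.30, a 12.1-fold fall (limma adjusted p = 0.000229). Its raw signals were 176 and 203 on LPS arrays, against 1408 and 1467 on unstimulated arrays. The detection limits of the LPS arrays were 164 and 161. With no background correction the change was -2.33 for H2-DMb2 and -2.35 for Ciita.

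H2-Ob changed by -2.48 ± 0.14 and H2-DMa by -2.24 ± 0.11 with LPS (limma adjusted p = 5.26e-05 and 3.1e-05). H2-Ob lay just above the detection limit on both LPS arrays, and its change was -1.11 on the authors' values. H2-Aa, H2-DMb1 and H2-Eb1 fell by near amounts, at -1.82 ± 0.11, -1.78 ± 0.11 and -1.77 ± 0.11 (limma adjusted p = 8.09e-05, 7.24e-05 and 7.62e-05). Cd74 fell less, at -1.07 ± 0.16 (limma adjusted p = 0.00234), with -1.12 from its second probe.

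The smallest falls with LPS were those of H2-Ab1 and H2-Oa. H2-Ab1 changed by -0.64 ± 0.12 (limma adjusted p = 0.00596), and its 4 probes gave -0.73 to -0.56. The raw signals of its brightest probe were 25265 and 26524 on LPS arrays, against 57154 and 49657 on unstimulated arrays, where the highest signal of an array was between 58168 and 64231. The 3 dimmer probes, with unstimulated means of 25793 to 37122, gave changes of the same size. H2-Oa changed by -0.58 ± 0.12 (limma adjusted p = 0.00954), against -1.25 under median scaling, -1.49 unscaled and -0.39 when background was not corrected. Its call ended without the second unstimulated array (limma adjusted p = 0.0557, log2 change -0.55), within a range of 4.9e-05 to 0.0557 over all alternatives.

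The scaling between arrays bears on every LPS value. As said for ROS, median scaling aligned the arrays at a level not above background. Median scaling moved the median change of all genes with LPS by -0.47 and no scaling moved it by -0.71, and the genes called higher and lower became 867 and 4182 or 614 and 5185, against 1950 and 2289 with quantile normalisation. Under both, all 10 class II genes were called lower. Relative to the median of all genes, H2-Ab1 stood at -0.60 with quantile normalisation and at -0.29 under either alternative. On the same relative scale H2-Aa stood at -1.77 and -1.81, and H2-Oa at -0.54 and -0.74.

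The direct comparison of LPS with ROS asked where the stimuli differed. With LPS 3 class II genes were lower (Ciita, H2-DMa and H2-DMb2), 3 were higher (H2-Aa, H2-Ab1 and H2-Ob) and 4 were not called, while 30.9% of all genes were called lower and 24.9% higher. The median change was -0.27, against -0.08 over all genes. Median scaling moved that median of all genes by -0.38, with 1112 genes higher and 3925 lower, against 1963 and 2438, and no scaling gave 926 and 4383. Ciita was 4.09-fold lower after LPS than after ROS (-2.03 ± 0.30, limma adjusted p = 0.00198) and H2-DMa 2.02-fold lower (-1.01 ± 0.11, limma adjusted p = 0.000546). H2-DMb2 changed by -2.49 ± 0.21 (limma adjusted p = 0.00024). With no background correction and on the authors' values the difference was -1.09 and -1.14 for Ciita, and -0.96 and -0.98 for H2-DMb2. In the other direction, H2-Ab1 was 2.21-fold higher after LPS (1.14 ± 0.12, limma adjusted p = 0.000541), and its 4 probes gave 1.14 to 1.32.

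H2-Aa was higher by 0.72 ± 0.11 after LPS than after ROS (limma adjusted p = 0.0029), a call that ended under median scaling and with no scaling, where the differences were 0.25 and 0.11. Relative to the median of all genes these stood at 0.70, against 0.79 with quantile normalisation. H2-Ob was at least 1.2-fold higher after LPS on background-corrected values (limma adjusted p = 0.00951), with a log2 difference of 0.18 when uncorrected, a call that ended with no scaling and with no background correction. H2-Eb1 did not pass, at -0.06 ± 0.11 (limma adjusted p = 0.665, 95% interval -0.33 to 0.21). Cd74 and H2-Oa had differences of -0.36 ± 0.16 and -0.26 ± 0.12 (limma adjusted p = 0.0993 and 0.127, 95% intervals -0.75 to 0.02 and -0.56 to 0.05). Cd74 passed under 6 alternatives and H2-Oa under both other scalings. For H2-DMb1 the difference was -0.28 ± 0.11 (limma adjusted p = 0.0714), and it passed under 6 alternatives. The second Cd74 probe did pass, at -0.62 ± 0.11 (limma adjusted p = 0.0038).

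**Figure D3:**
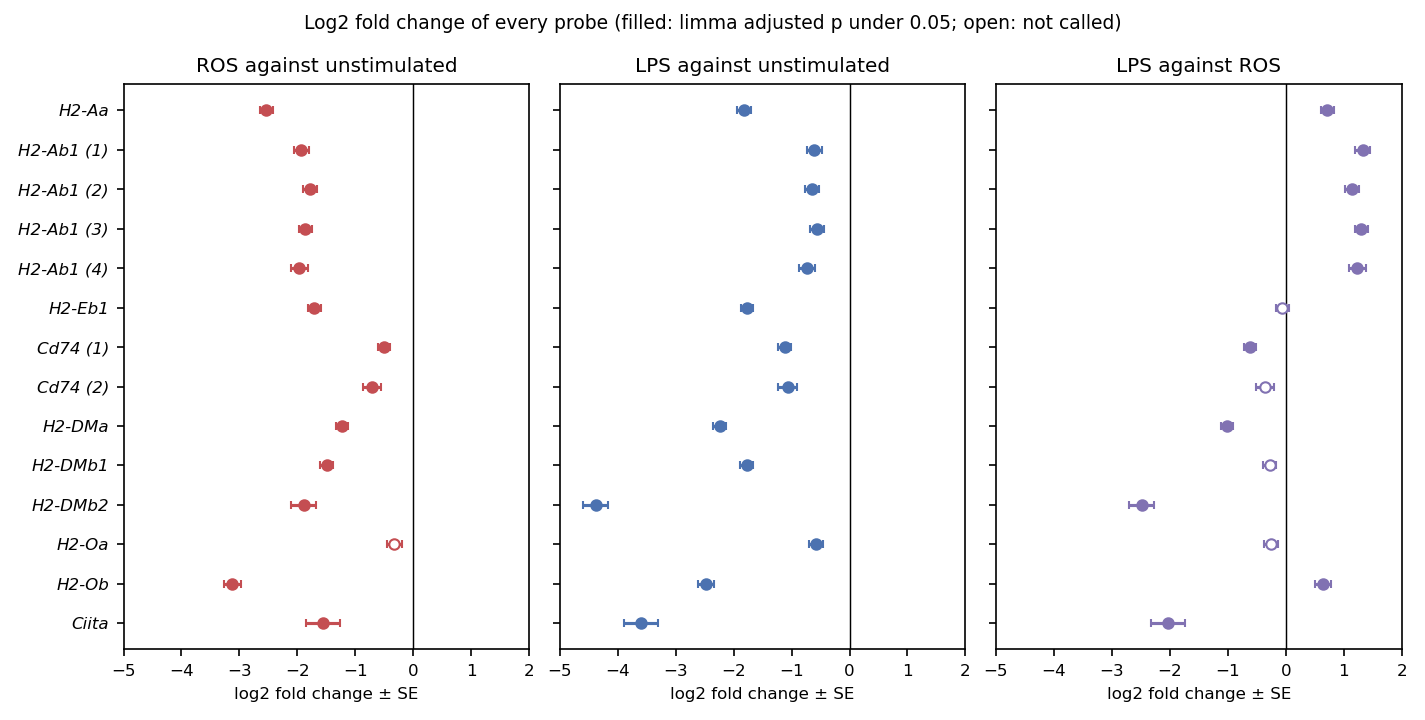
Log2 fold change with its standard error (horizontal axis) of all 14 class II probes in the 3 comparisons, filled where the limma adjusted p was under 0.05. Every point lies below 0 in both comparisons with unstimulated cells, while in LPS against ROS the 4 H2-Ab1 probes lie at 1.14 to 1.32 and Ciita at -2.03.

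The order of the levels differed between genes. Unstimulated cells were highest for all 10. ROS was lowest for H2-Aa, H2-Ab1 and H2-Ob. The calls of H2-Aa and H2-Ob between the stimuli ended with no scaling, and H2-Ob was not above background on either ROS array. LPS was lowest for the other 7, of which H2-Eb1, Cd74, H2-DMb1 and H2-Oa did not differ between the stimuli past the threshold. The chains of I-A did not move by equal amounts within an array. The log2 intensity of H2-Aa minus that of H2-Ab1 was -5.20 and -4.98 on ROS arrays, -5.49 and -5.54 on LPS arrays, and -4.45 and -4.23 on unstimulated arrays. Only changes in this difference can be read, since it sets one probe against another. It changed by -0.75 with ROS and by -1.18 with LPS, and the other H2-Ab1 probes gave -0.67 to -0.57 with ROS and -1.26 to -1.09 with LPS. Under median scaling the changes were -0.62 with ROS and -1.52 with LPS. The difference was not tested.

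The authors' log2 values, which are quantile normalised and keep the ranks of the raw signals on each array, gave the same direction for every class II gene in all 3 comparisons. For Ciita they were 9.06 and 8.84 on ROS, 7.64 and 7.99 on LPS, and 10.11 and 10.35 on unstimulated arrays. The changes were smaller where signals were near background. H2-Ob stood at 7.20 and 7.31 on ROS, 7.49 and 7.51 on LPS, and 8.67 and 8.55 on unstimulated arrays, a change of -1.35 with ROS. On those values 5 class II genes were lower and 3 higher after LPS than after ROS, with Cd74 and H2-DMb1 added to the lower ones.

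Other genes of the pathway moved in both directions. Their lists were compiled with earlier results of these data known, and their counts are set beside the shares of all genes called. With quantile normalisation these were 21.8% higher and 18.0% lower with ROS, and 24.7% and 29.0% with LPS. Under median scaling they were 17.2% and 22.0% with ROS and 11.0% and 53.0% with LPS. With no scaling they were 12.9% and 26.4% with ROS and 7.8% and 65.7% with LPS. For LPS against ROS the shares were 24.9% higher and 30.9% lower with quantile normalisation. They were 14.1% and 49.7% under median scaling, and 11.7% and 55.5% with no scaling. Among the factors that bind class II promoters, 2 of 6 measured rose with ROS and 0 fell, and 2 rose and 1 fell with LPS, with median log2 changes of 0.34 and 0.04. The LPS count turned to 0 higher and 2 lower under median scaling (Rfxap and Nfyb, at -1.31 and -0.67), and to 0 and 3 with no scaling, with Nfyc added at -0.49. Creb1, which binds next to the X box, changed by 0.98 ± 0.12 with ROS and 0.67 ± 0.12 with LPS (limma adjusted p = 0.00204 and 0.00504). Rfxank, a subunit of the RFX complex on the X box, changed by 0.61 ± 0.16 and 0.70 ± 0.16 (limma adjusted p = 0.029 and 0.013). On the authors' values the ROS changes were 0.43 for Creb1 and 0.21 for Rfxank, the second not called (limma adjusted p = 0.0684). Both LPS calls ended under median scaling and with no scaling, where Creb1 gave 0.02 and -0.22 and Rfxank 0.16 and -0.08. Rfxap, another RFX subunit, fell with LPS (-0.64 ± 0.18, limma adjusted p = 0.0243) and had a change of -0.26 ± 0.18 with ROS that did not pass, and that was called lower with no scaling (-0.48).

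Of 6 measured regulators of Ciita transcription, 1 rose and 1 fell with ROS and 2 rose and 0 fell with LPS (median -0.07 and 0.22). With LPS 1 was higher and 2 were lower under median scaling (Irf4 and Irf8, at -0.60 and -0.93), and 1 was higher and 4 were lower with no scaling, with Spi1 and Usf1 added. Irf1, the interferon regulatory factor that activates a Ciita promoter, rose with ROS (0.51 ± 0.13, limma adjusted p = 0.0234) and LPS (0.86 ± 0.13, limma adjusted p = 0.00234). The ROS call ended under median scaling and with no scaling (0.40 and 0.29). Bcl6, a transcriptional repressor, fell with ROS (-1.25 ± 0.13, limma adjusted p = 0.00105) and rose with LPS (0.79 ± 0.13, limma adjusted p = 0.00343), though the rise was not called under the other scalings (0.29 and 0.06). It was higher by 2.04 ± 0.13 after LPS than after ROS (limma adjusted p = 7.47e-05). Spi1, the PU.1 gene, was 0.47 ± 0.12 higher after LPS than after ROS (limma adjusted p = 0.0154), a sign that turned under them (-0.09 and -0.22).

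In endosomal antigen processing 5 of 9 genes fell and 0 rose with ROS (median -0.92), and 3 fell and 1 rose with LPS (median -0.18). The falls with LPS numbered 5 under median scaling, with Ifi30 and Ctsd added, and 6 with no scaling, with Lgmn added. After LPS 5 were higher than after ROS and 1 was lower (median 1.03), against 5 and 2 under either other scaling. The cathepsin gene Ctsl was above background on 1 of 2 ROS arrays, with a fitted change of -2.33 ± 0.15 with ROS (limma adjusted p = 0.000223) and one of -0.97 on the authors' values. Ctss, the protease that trims the invariant chain, changed by -1.21 ± 0.18 with ROS (limma adjusted p = 0.00394) and by 0.45 ± 0.18 with LPS, which did not pass. The LPS value was -0.18 under median scaling and -0.41 with no scaling, and on the authors' values it was 0.36 and called higher (limma adjusted p = 0.0134). Lgmn, an asparaginyl endopeptidase, fell with ROS (-1.39 ± 0.11, limma adjusted p = 0.00047), and Ctsh fell with both stimuli (-0.99 ± 0.17 and -1.07 ± 0.17, limma adjusted p = 0.00588 and 0.0028). Ctsz rose with LPS (0.91 ± 0.13, limma adjusted p = 0.00229), and the cystatin gene Cst3, a cathepsin inhibitor, fell with LPS (-0.51 ± 0.12, limma adjusted p = 0.0149).

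Of 8 measured genes of class II ubiquitination and traffic, 4 fell and 0 rose with ROS (median -0.32), and 3 fell and 1 rose with LPS (median -0.06). With LPS 4 fell and 0 rose under median scaling, and 5 fell and 0 rose with no scaling, with Marchf1 and Cd83 added. After LPS 4 were higher than after ROS and 1 was lower (median 0.28), against 2 and 2 under median scaling and 1 and 2 with no scaling. Marchf1, the ubiquitin ligase that sends surface class II to lysosomes, changed by -0.99 ± 0.14 with ROS (limma adjusted p = 0.00366) and by 0.08 ± 0.14 with LPS (limma adjusted p = 0.647). The LPS value became -0.61 and -0.84, both called lower, under median scaling and with no scaling. The tetraspanin genes Cd81 and Cd9 fell with ROS (-1.91 ± 0.13 and -0.62 ± 0.13) and with LPS (-0.49 ± 0.13 and -1.01 ± 0.13; limma adjusted p = 0.000269 to 0.0227 for all 4). Another tetraspanin gene, Cd82, rose with LPS (0.60 ± 0.12, limma adjusted p = 0.00843), with values of 0.06 and -0.18 under the other scalings.

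**Figure D4:**
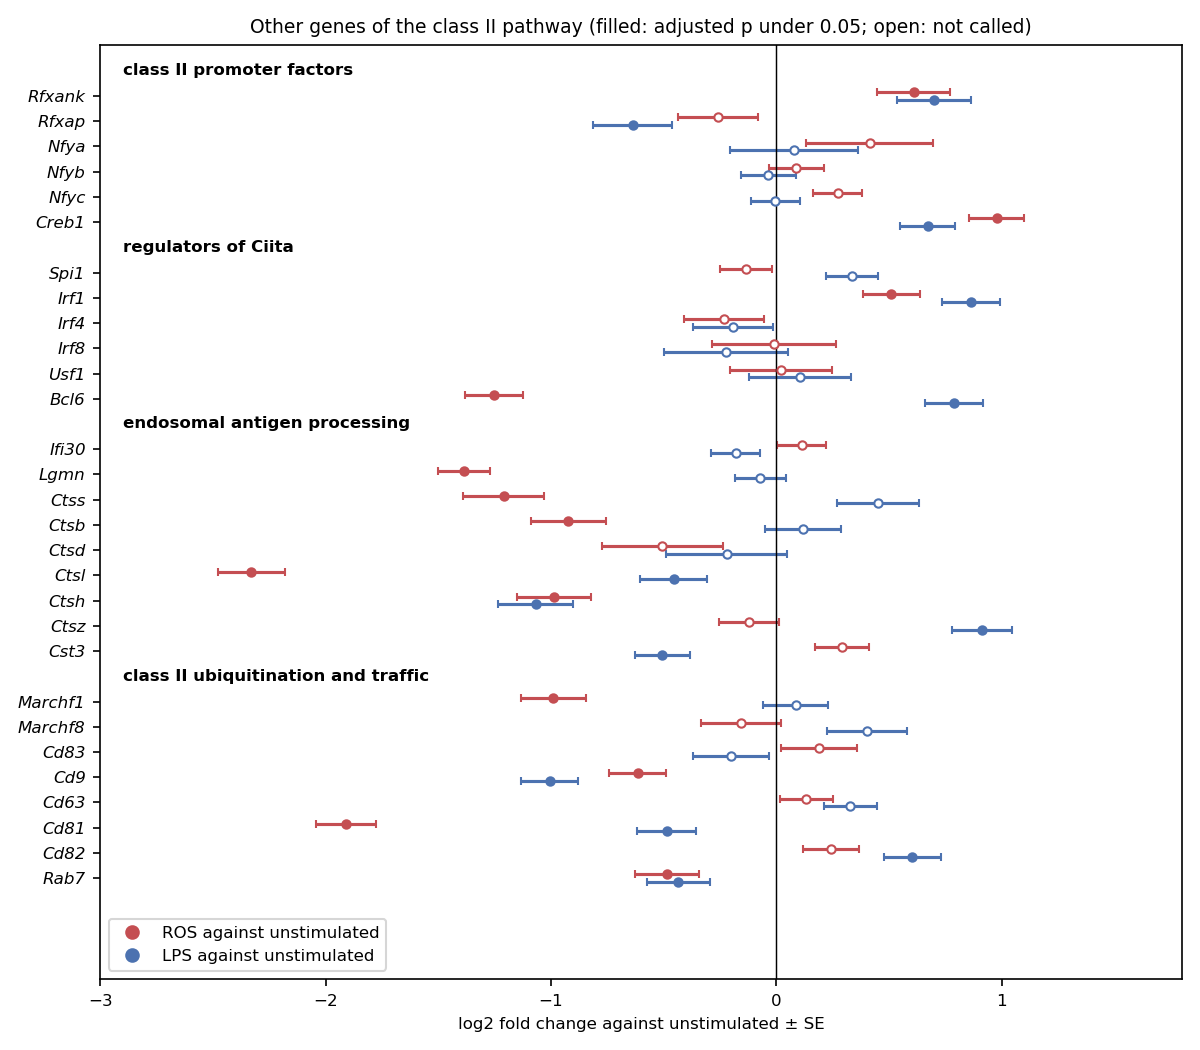
Log2 fold change against unstimulated cells with its standard error (horizontal axis) of 29 other genes of the class II pathway in 4 lists, for ROS and LPS, filled where the limma adjusted p was under 0.05. Points of the promoter factors lie between -0.64 and 0.98, and Cd81 lies at -1.91 with ROS.

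The genes with the pattern most like that of Ciita were sought among 7887 other genes, as the lowest root mean square difference of centred log2 intensities over the 6 arrays. They were Upb1, Tpcn1, Iqgap3, Scd1 and Pi16, with differences of 0.26, 0.27, 0.31, 0.32 and 0.32. Closest to the mean of H2-Aa, H2-Ab1, H2-Eb1 and Cd74 were 2310022B05Rik, Zfp36, Notch4, Emilin2 and Pkm, at 0.06, 0.07, 0.07, 0.08 and 0.08. The 6 arrays fall into 3 groups, and the likeness is a description.

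Markers of other cell types moved beside the class II genes. Over all genes 21.8% were called higher and 18.0% lower with ROS, and 24.7% and 29.0% with LPS. Marker counts were taken with quantile normalisation alone. The other scalings called 53.0% or 65.7% of all genes lower with LPS. Of 8 measured macrophage markers 5 fell and 0 rose with ROS, and their summed intensity was 23159 to 26739 on ROS arrays, 50294 to 51772 on LPS arrays and 61092 to 63844 on unstimulated arrays. With LPS 4 fell and 2 rose, among them Mrc1 at -3.19 and Fcgr1 at 4.51, opposite changes that the sum hides. A sum follows its brightest probes, which are those of Lyz2 and Gpnmb among the macrophage markers. Of 9 neutrophil and granulocyte precursor markers 3 rose and 4 fell with ROS, and all 9 fell with LPS, with sums of 37579 to 40432 on ROS, 2301 to 2384 on LPS and 48979 to 50958 on unstimulated arrays. Ngp, Mpo and Prtn3 were not above background on either LPS array. S100a8, the brightest probe in that sum, changed by 0.16 with ROS, which did not pass (limma adjusted p = 0.335). Of 3 measured mast cell and basophil markers 2 rose and 0 fell with ROS, and all 3 fell with LPS. They summed to 3933 to 4182 on ROS, 169 to 220 on LPS and 971 to 1057 on unstimulated arrays. Of 8 dendritic cell markers 4 rose and 3 fell with ROS, and 1 rose and 4 fell with LPS, with sums of 9401 to 9624 on ROS, 4622 to 4844 on LPS and 8152 to 8582 on unstimulated arrays. Of 2 plasmacytoid dendritic cell markers, 1 rose and 0 fell with ROS (Bst2, by 1.86), and 1 rose and 1 fell with LPS (Bst2 at 3.75 and Tcf4 at -0.65). They summed to 2628 to 2807 on ROS, 3160 to 3213 on LPS and 2815 to 2923 on unstimulated arrays. B lineage cells, a major site of H2-O expression, had 1 of 8 markers with a named probe, Cd79b, which rose with ROS and fell with LPS, at 81.4 to 101 on ROS, 31.3 to 32 on LPS and 47.8 to 51.6 on unstimulated arrays. T and natural killer cells had 2 of 8, of which 1 rose with ROS and 1 fell with LPS, and which summed to 140 to 161 on ROS, 70.9 to 105 on LPS and 78.1 to 88.8 on unstimulated arrays, and no monocyte marker had a named probe. What part these cells have in the class II values was not tested.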

How the data were processed

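Signals of 25697 probes were deposited as linear intensities, and the submitters' processing notes name GenomeStudio 2009.2. Whether the authors subtracted background is not stated, but a background level remains in their values. On the first ROS array H2-Ob was not above background, with a raw signal of 149 and an authors' log2 value of 7.20. The background mean of that array was 148 in raw signal. The deposited detection p-value per probe covers 5 arrays and not the second LPS array. The other deposited table gives 11220 probes as log2 intensities, quantile normalised, with a median of 8.47 in each column. It lists exactly the probes detected (p under 0.05) on at least 3 arrays. The log base was read from the values. Columns of the signal table were matched to samples by name, and ranks in both tables agree on every array.

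The detection limit of the second LPS array was read from that list (between 160.52 and 160.57), and its background mean and SD from the shares and distances on the other arrays. Signals were corrected with limma's normexp, an offset of 16 was added, and arrays were quantile normalised. Probes detected on both arrays of at least 1 group were kept (11622). The platform annotation named 10558 probes, and 7897 genes were each represented by their brightest probe. The fit (R 4.3.3, limma 3.58.1, lmFit and eBayes, 1 coefficient per group, no covariates, 3 residual and 3.02 prior degrees of freedom) was tested on simulated data. In that simulation, of ROS against unstimulated arrays, 100 of 11622 probes were given a log2 change of 1 and 100 a change of 2. Of these, 57% and 85% were called, and 3 unchanged probes were called. In the data 21.8% of genes were called higher and 18.0% lower with ROS. The adjusted threshold depends on that share, so the simulated rates need not hold for the data. Figures used matplotlib 3.10.9. The number of arrays limits the precision. Named genes beyond the 10 were, per list, up to 4 with the largest called changes plus those of differing direction. The members and lists were chosen with earlier results of these data known. Coordinates come from RefSeq, since no label names a build. The sequences printed are those of 6 genes.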

Additional observations from a re-analysis of the deposited data

How the results depend on the processing

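Over 20 alternatives (scaling, background, offset, filters, probes, spread, arrays left out) every class II gene kept its direction in all 3 comparisons, and 569 of 597 values also kept their side of the threshold. Genes called lower numbered 7 to 10 with ROS and 9 to 10 with LPS, and 0 were called higher in any of these settings. With 1 array left out these were 7 to 9 and 9 to 10, the lone array being assumed to vary like the others. In LPS against ROS, genes called lower numbered 5 under median scaling, on the authors' values, with an intensity trend and without background correction, and 6 with no scaling, against 3 as reported. Genes called higher numbered 1 with no scaling, and 2 under median scaling and with no background correction, against 3. They also numbered 2 where detection was required on every array with a detection p, a filter that H2-Ob failed. With an array left out the LPS against ROS counts were 3 to 4 lower and 3 higher. The cause was not tested. Same-numbered arrays did not deviate together (r = -0.10 for ROS and unstimulated, 0.02 for LPS and unstimulated, -0.02 for LPS and ROS). With the replicate number as a block 9 and 10 genes were lower with ROS and LPS, and 3 lower and 3 higher in LPS against ROS. With ROS numbers crossed, added after the data were seen, the counts were 9, 10, 3 and 3. A slide block was not run, since no slide is given. The blocks, the filters, the estimates of spread and the arrays of the group not compared cannot alter a probe's fold change. For those alternatives its direction was fixed in advance. Signals near background limit H2-Ob, H2-DMb2 and Ciita: their smallest changes, with no background correction or on the authors' values, were -1.25 with ROS for H2-Ob, and -2.33 and -2.35 with LPS for H2-DMb2 and Ciita.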

Other observations

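H2-Eb2, a further beta chain gene of the class II region, was too dim in unstimulated cells for a fall to be seen. Its raw signals on unstimulated arrays were 196 and 170, against detection limits of 181 and 179. It had log2 intensities of 5.47 and 5.29 on ROS arrays, 5.50 and 6.02 on LPS arrays, and 5.61 and 5.06 on unstimulated arrays, near background, and both treated groups overlapped the unstimulated one. Its changes of 0.04 ± 0.25 with ROS and 0.42 ± 0.25 with LPS did not pass (limma adjusted p = 0.911 and 0.199), and the LPS value was -0.10 with no scaling between arrays.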
